A study of Mus musculus with 6 samples.

Results

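S100a8 and S100a9 encode the subunits of calprotectin, and they are 2 of the 29781 genes counted in any library of this single-cell RNA-seq study of mouse pancreatic tumours. They were taken by name. They are described here in neutrophils with a UMI of Cxcr2 or of Siglecf, in monocytes, in the other cell classes of each tumour, and between the treatments. KPC cells, a mouse pancreatic cancer line, were implanted in the pancreas of wild-type C57BL/6J mice, and the tumours were taken 11 days later. The control group is 3 mice given IgG and the other group is 3 mice given #44-anti-mVSIG4, an antibody against the macrophage complement receptor VSIG4. Neither the dose nor the schedule is stated in the labels. Each mouse gave 1 library, so the mouse is the replicate throughout, and the libraries are called IgG 1 to 3 and anti-VSIG4 1 to 3.

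S100A8 and S100A9 are small calcium-binding proteins that pair into calprotectin, which makes up much of the soluble protein of neutrophils and is also made by monocytes. Outside the cell the pair withholds zinc and manganese from microbes and acts as an alarm signal through the receptor TLR4 and through partners such as CD36 and EMMPRIN (Bsg). The genes are switched on during neutrophil maturation in the bone marrow under C/EBP factors and PU.1 (Spi1), and in tumours they are widely used as markers of neutrophils and of suppressive myeloid cells.

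The 2 genes are neighbours on chromosome 3 with 0 genes between them in the RefSeq table, and they are read from opposite strands. From each RefSeq promoter window in GRCm38.p6, running from 250 bases before to 50 bases after the start site, a stretch of 60 bases is printed, since these neighbours are expressed together and their windows hold different motif matches. In the S100a8 stretch (plus strand, chr3:90669011-90669070) the capitals mark GAGGAA, read on the opposite strand, directly followed by TATAAA. In the S100a9 stretch (minus strand, chr3:90695912-90695971, printed in the gene's direction) the capitals mark a match to the C/EBP core TTGCNNAA.
S100a8: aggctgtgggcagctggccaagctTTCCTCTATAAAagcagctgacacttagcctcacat
S100a9: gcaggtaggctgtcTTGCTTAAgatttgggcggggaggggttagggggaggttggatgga
Among 32851 mouse promoter windows of 300 bases searched on both strands, TATAAA was found in 13.6%, TTGCNNAA in 10.8% and GAGGAA in 28.3%. TATAAA was found 1 time in each gene's window, at position -30 from the start site in S100a8 and at position 1, the start site itself, in S100a9. GAGGAA is a core bound by PU.1-type factors, and it was found 2 times in the S100a8 window and 0 times in the S100a9 window. TTGCNNAA was found 1 time in the S100a9 window and 0 times in that of S100a8. The STAT-type motif TTCNNNGAA, present in 8.30% of windows, was found in neither. These matches describe the letters only.

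The libraries held 26606234 to 47221033 UMIs each, and 47603 of 47794 cell barcodes were kept, 24856 from IgG tumours and 22747 from anti-VSIG4 tumours. Cells are named by serial numbers in the deposited matrices, so the 11691 of 32450 cell names that occur in more than 1 library do not show shared cells. One difference between libraries bears on the results. Clusters of nucleus-like barcodes, rich in UMIs of long genes, made up 16.1% of IgG 2, 43.1% of IgG 3 and 5.17% of anti-VSIG4 3, against 0.247% to 0.348% of the other 3 libraries. IgG 2, IgG 3 and anti-VSIG4 3 are called nucleus-rich here. This library kind is given beside the pair's treatment results in neutrophils and between the gates, but not beside every other treatment result. Levels are in CPM, the UMIs of a gene divided by the summed UMIs of the cells of a set in 1 mouse, times 1e6.

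Calprotectin transcripts sat mainly in neutrophils. S100a8 alone made up 0.0469% to 0.304% of all UMIs of a library and S100a9 0.0914% to 0.501%. Neutrophils numbered 15339 cells, 1341 to 3890 per library. The class was named from marker genes other than the pair. Among these markers Csf3r, the G-CSF receptor, was at 661 to 1420 CPM in it. Cxcr2, a receptor for neutrophil-attracting chemokines and also a naming marker, was at 416 to 777 CPM. These levels describe the class and are no separate check of its name. Neutrophils were 31.2%, 40.1% and 17.2% of the cells of IgG 1, 2 and 3 and 41.0%, 20.7% and 43.7% of those of anti-VSIG4 1, 2 and 3. They held 76.1%, 84.6% and 78.3% of the pair's UMIs in the IgG libraries and 77.4%, 72.9% and 88.6% in the anti-VSIG4 libraries. The neutrophils' part in the pair's UMIs was therefore between 72.9% and 88.6% in tumours that differed widely in their neutrophil content.

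S100a8 in neutrophils stood at 11371, 5413 and 5932 CPM in IgG 1, 2 and 3 and at 13491, 8101 and 9993 CPM in anti-VSIG4 1, 2 and 3. S100a9 stood at 17652, 9776 and 11717 CPM in the IgG libraries and at 21629, 14857 and 16946 CPM in the anti-VSIG4 libraries. The highest library of both genes was anti-VSIG4 1 and the lowest were IgG 2 and IgG 3, while IgG 1 lay among the anti-VSIG4 libraries, so the groups overlapped; they stood apart for 1370 of 10919 genes (12.5%). The group means were 7572 ± 3300 and 10528 ± 2735 CPM for S100a8 (SD, n = 3 mice each), and 13048 ± 4104 and 17810 ± 3468 CPM for S100a9.

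**Figure D1:**
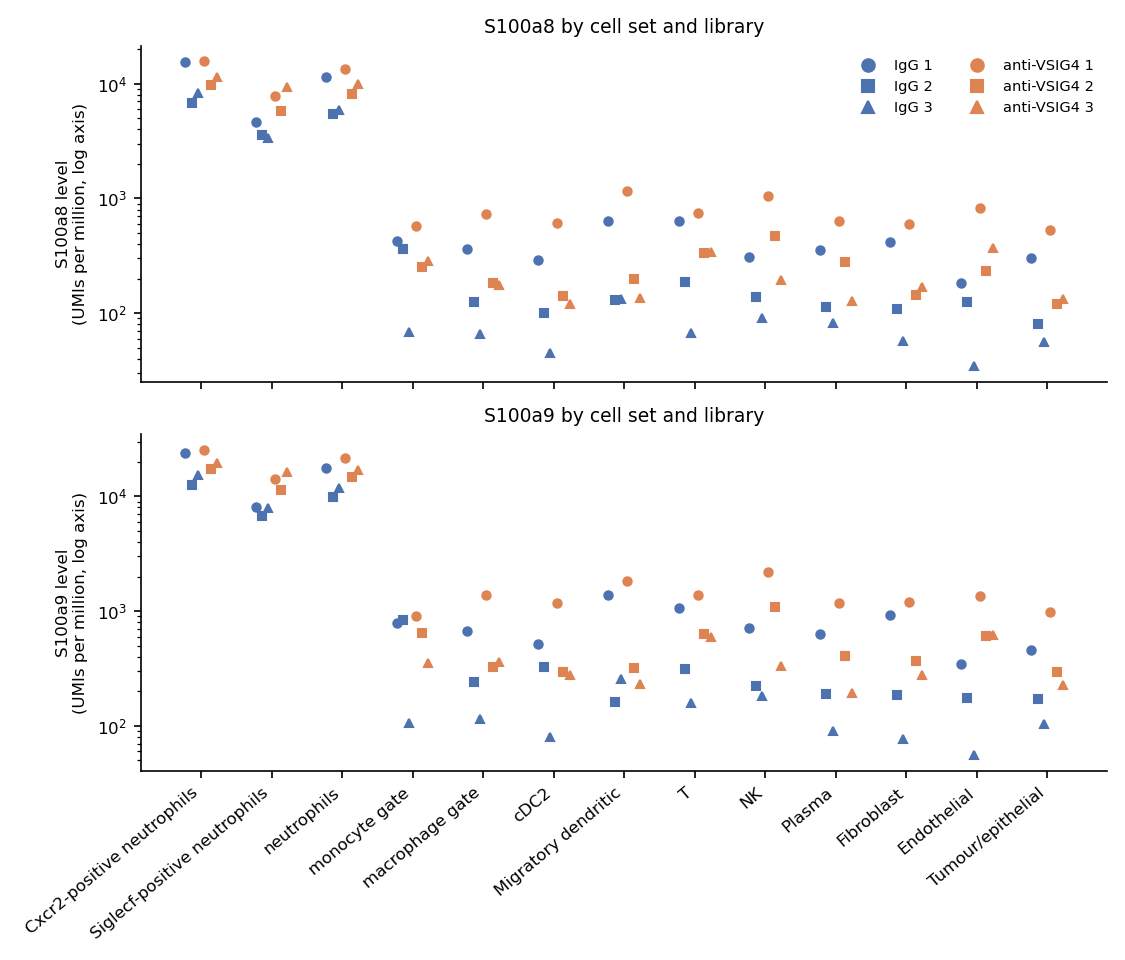
Levels of S100a8 and S100a9 (CPM, log axis) in each cell set; each point is 1 library, IgG blue and anti-VSIG4 orange. Neutrophils lie between 5413 and 13491 CPM for S100a8, while monocyte-gate cells lie between 68.4 and 580 CPM, within the range of T cells.

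Between the treatments, neither gene passed the test in neutrophils as a whole. In edgeR's quasi-likelihood test with Benjamini-Hochberg adjustment, 1 of 10919 genes was called at a false discovery rate of 0.05, which is 0.00916% of the genes tested, and 621 (5.69%) had an unadjusted p under 0.05. That gene was Car4, a carbonic anhydrase, named here after its value was seen. The log2 difference of anti-VSIG4 over IgG was 0.58 ± 0.34 for S100a8 (SE, edgeR adjusted p = 0.859) and 0.56 ± 0.27 for S100a9 (edgeR adjusted p = 0.839). With library kind as a covariate these were 0.49 (edgeR adjusted p = 0.658) and 0.46 (edgeR adjusted p = 0.515). Within the nucleus-rich libraries anti-VSIG4 3 was above IgG 2 and IgG 3 for both genes, and in the other 3 libraries IgG 1 lay between anti-VSIG4 1 and anti-VSIG4 2. All p-values measure the spread between these mice only.

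The genes that make or read calprotectin did not pass this test either. Of the receptors and partners (Tlr4, Cd14, Bsg and others) 0 of 8 tested members were called, with a median log2 difference of 0.15 beside -0.02 over all genes. The regulators, which include the C/EBP genes and Spi1, gave 0 of 9 and a median of 0.26. The rest of the S100 family gave 0 of 8 and a median of 0.19. Granule genes and genes of recent release from marrow (Lcn2, Camp, Retnlg and others) gave 0 of 13 and a median of 0.54. On library totals without TMM scaling, the median over all genes in this comparison moved by -0.11 and the gene called was lost.

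Neutrophils differed far more from each other than the group means did. With every cell thinned to 1000 UMIs, the median neutrophil held 10, 4 and 3 UMIs of the pair in IgG 1, 2 and 3, and 15, 7 and 8 in anti-VSIG4 1, 2 and 3. No UMI of the pair remained in 9.13%, 24.5% and 27.6% of neutrophils of the IgG libraries and in 2.93%, 15.6% and 14.01% of those of the anti-VSIG4 libraries. The 10% of neutrophils richest in the pair held between 49.9% and 66.2% of the neutrophils' calprotectin UMIs. So in every library a minority of cells carried about as much of the pair as all the others together, or more.

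**Figure D2:**
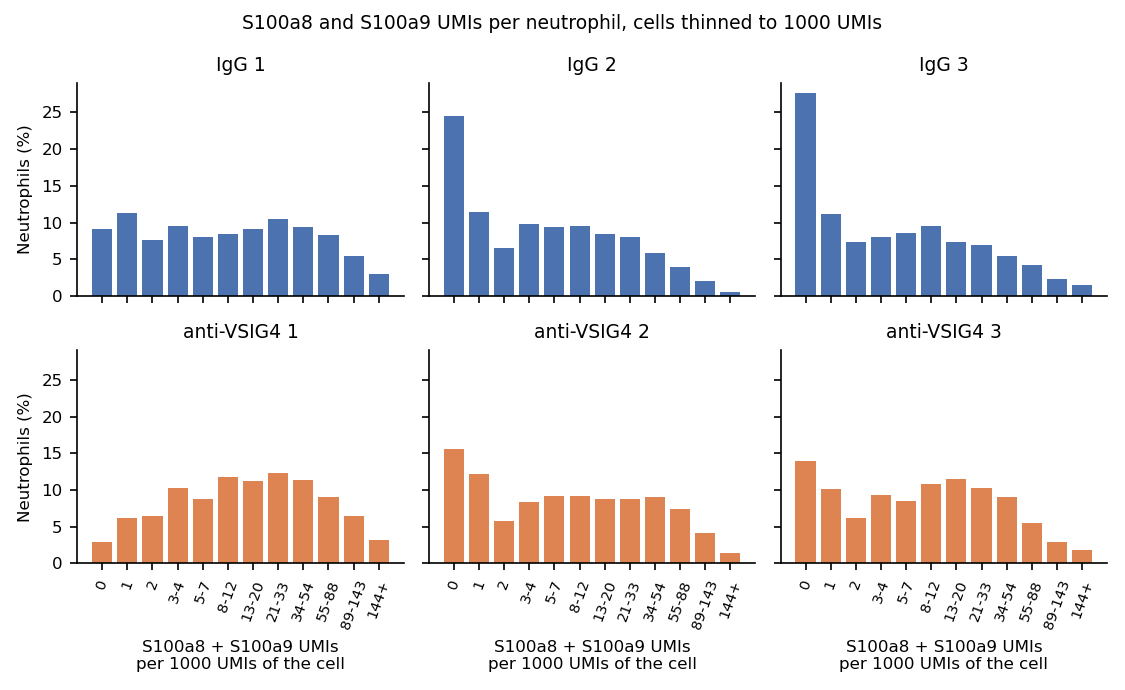
Share of neutrophils (%, bars) by their UMIs of S100a8 plus S100a9 after thinning each cell to 1000 UMIs, in bins that widen to the right, by library; IgG blue and anti-VSIG4 orange. The bar at 0 is tallest in IgG 3 (27.6%) and lowest in anti-VSIG4 1 (2.93%).

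Sub-clusters, which were built without the pair, sorted these cells. Cells led by Retnlg, Cstdc4 and Asprv1 (4570 cells) had S100a8 at 9404 to 20073 CPM and S100a9 at 17591 to 31927 CPM. Cells led by Hcar2, Igfbp6, Il23a and Cxcl2 (6429 cells) had S100a8 at 1936 to 6346 CPM and S100a9 at 4731 to 11403 CPM. A sub-cluster led by Il23a, Cstdc4 and Mmp9 (4294 cells) had S100a8 at 6695 to 13073 CPM and S100a9 at 10233 to 21214 CPM. It lay above the Hcar2-led cells in every library and below the Retnlg-led cells in 4 of 6, but in IgG 2 both genes were higher in its 89 cells than in the Retnlg-led ones, and in anti-VSIG4 3 S100a8 was 11605 against 11505 CPM. Retnlg encodes resistin-like gamma, a product of young neutrophils, and Cxcl2 a chemokine that draws further neutrophils. The sub-clusters were unevenly spread: the nucleus-rich libraries gave 1094 to 2469 cells of the Hcar2-led one and 49 to 127 cells of the Il23a-led one, while the other libraries gave 189 to 288 and 714 to 2119. In the Retnlg-led sub-cluster, which every library filled with 339 to 1534 cells, S100a8 stood at 19809, 9404 and 9623 CPM in the IgG libraries and at 20073, 12538 and 11505 CPM in the anti-VSIG4 libraries.

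A small sub-cluster of 46 cells of the neutrophil class was the richest in calprotectin. Csf3r and Cxcr2 were low in it, at 29.2 and 54.2 CPM over its pooled cells, against 904 and 576 CPM in pooled neutrophils. The leading genes of the sub-cluster were Camp, Ngp, Lcn2 and Ltf, which encode proteins of secondary granules packed in the marrow. S100a8 made up 8.04% and S100a9 10.9% of all its UMIs, together 19.0%. After thinning to 1000 UMIs, the median cell held 168.5 UMIs of the pair and the range was 48 to 444. These cells came unevenly: 0, 2 and 11 from IgG 1, 2 and 3 and 3, 0 and 30 from anti-VSIG4 1, 2 and 3. In anti-VSIG4 3 those 30 cells gave 21.4% of the pair's UMIs in neutrophils, and in IgG 3 the 11 cells gave 8.89%. Without the sub-cluster, S100a8 in all neutrophils was 7739.6 CPM in anti-VSIG4 3 and 5512 CPM in IgG 3, and the fitted log2 difference between treatments was 0.49 for S100a8 and 0.51 for S100a9 (edgeR adjusted p = 0.881 and 0.870).

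Cxcr2-positive neutrophils held more of both transcripts than Siglecf-positive ones in every mouse. Siglecf encodes a sialic-acid-binding receptor that marks eosinophils and, in mouse tumours, neutrophils that have stayed in the tissue, while Cxcr2 is high on neutrophils that have newly arrived from blood. Cells were gated on at least 1 UMI of one gene and none of the other, which gave 6241 Cxcr2-positive and 1116 Siglecf-positive neutrophils. Median depth was alike in both gates, 1383 to 1981 UMIs against 1410 to 1947 per library. Eosinophil genes were at or near 0 in the Siglecf-positive gate, with 0 UMIs of Epx, 0 of Ear6, 1 of Prg2, 1 of Il5ra and 5 of Ccr3 over all 1116 cells, and 0 of the 6 eosinophil markers were abundant enough to be tested between the gates. By its markers the gate thus held neutrophils.

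S100a8 in Cxcr2-positive neutrophils stood at 15620, 6817 and 8359 CPM in IgG 1, 2 and 3 and at 15853, 9673 and 11544 CPM in anti-VSIG4 1, 2 and 3. In Siglecf-positive neutrophils S100a8 stood at 4618, 3551 and 3373 CPM in the IgG libraries and at 7787, 5761 and 9359.8 CPM in the anti-VSIG4 libraries. The gates overlapped across mice, since anti-VSIG4 1 and 3 had more S100a8 in their Siglecf-positive cells than IgG 2 had in its Cxcr2-positive cells, but within each mouse the Cxcr2-positive gate was higher. The within-mouse fold was 3.38, 1.92 and 2.48 in the IgG mice and 2.04, 1.68 and 1.23 in the anti-VSIG4 mice, with a median of 1.98.

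S100a9 followed the same order. Its level in Cxcr2-positive neutrophils was 23847, 12474 and 15461 CPM in the IgG libraries and 25440, 17333 and 19369 CPM in the anti-VSIG4 libraries. In Siglecf-positive neutrophils it was 8080, 6685 and 7928 CPM and 14243, 11365 and 16174 CPM. All 6 mice were again higher in the Cxcr2-positive gate, by 2.95, 1.87 and 1.95 times in IgG 1, 2 and 3 and by 1.79, 1.53 and 1.20 times in anti-VSIG4 1, 2 and 3.

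**Figure D3:**
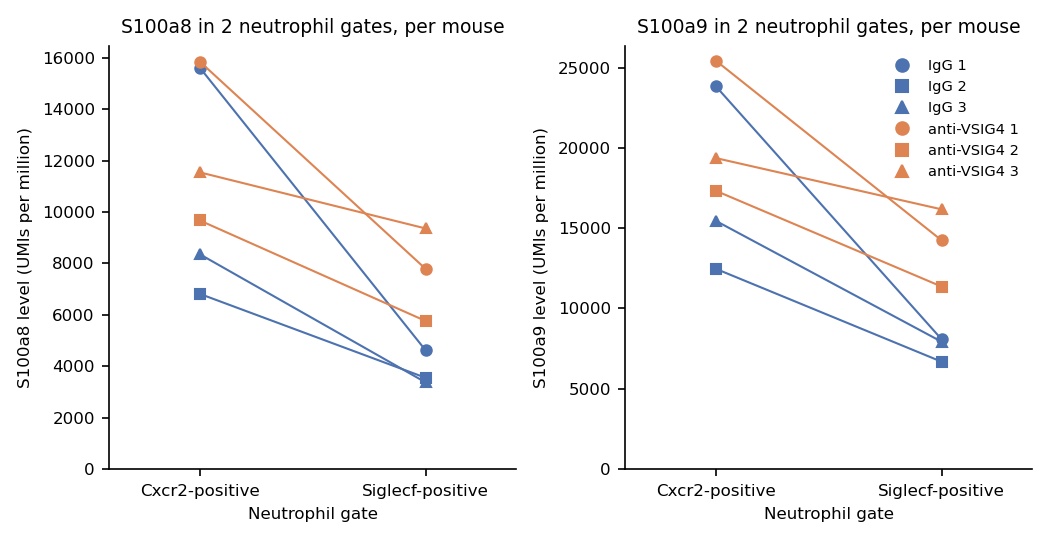
S100a8 and S100a9 (CPM) in Cxcr2-positive and Siglecf-positive neutrophils; lines join the gates of 1 mouse, IgG blue and anti-VSIG4 orange. Every line falls towards the Siglecf-positive gate, most steeply in IgG 1 (S100a8 15620 to 4618 CPM) and least in anti-VSIG4 3 (11544 to 9359.8 CPM).

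Both genes passed the test of gate with the mouse as a block. The log2 difference of Cxcr2-positive over Siglecf-positive cells was 1.27 ± 0.23 for S100a8 (SE, edgeR adjusted p = 0.00730) and 1.11 ± 0.20 for S100a9 (edgeR adjusted p = 0.00647). This was a wide contrast, in which 2230 of 5812 genes (38.4%) were called: 1185 higher (20.4%) and 1045 lower (18%) in Cxcr2-positive cells. The split depended on scaling. On library totals without TMM factors the median of all genes moved by -0.26 on the log2 scale, and 726 genes were called higher and 2074 lower, so the share of calls that were higher went from 53.1% to 25.9%. S100a8 and S100a9 stayed called at 1.00 (edgeR adjusted p = 0.00890) and 0.84 (edgeR adjusted p = 0.00934). Over all 16 alternatives the adjusted p ranged from 1.78e-14 to 0.0262 for S100a8 and from 2.77e-13 to 0.0246 for S100a9. Of neutrophils in neither single gate, the double-positive cells had S100a8 at 6876 to 11555 CPM and the double-negative cells at 4462 to 10725 CPM.

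The receptor side of the pathway moved with the pair in part. The median over all genes in this contrast was -0.04 (log2, Cxcr2-positive over Siglecf-positive), and the median of the 6 tested receptors and partners was 0.43. Of these 6, 4 were called higher and 0 lower, beside 20.4% higher and 18% lower over all genes. Cd14, the co-receptor that hands ligands to TLR4, was higher by 1.53, and Tlr4 itself by 1.03. Alcam (0.48), an adhesion partner reported to bind S100 proteins, and Myd88 (0.37), the adaptor of TLR4, were called with TMM scaling only. On library totals Tlr4 and Cd14 stayed called higher, and Bsg, the EMMPRIN gene, was called lower at -0.35, as were 2074 of 5812 genes.

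Regulators of the calprotectin genes gave 6 called higher and 0 lower of 8 tested, with a median of 0.42, beside 20.4% called higher over all genes. On library totals 3 of the 6 calls were left. Cebpb, the C/EBP member of inflamed myeloid cells, was higher by 0.66, Nfkb1 by 0.83 and Hif1a, a factor of low oxygen, by 0.65, and these 3 stayed called. Spi1, which encodes PU.1, Stat3 and Cebpd were called with TMM scaling only, and on library totals each differed by 0.15 (edgeR adjusted p = 0.0880, 0.192 and 0.269). Cebpe, the C/EBP member of late granule formation, was not called, at 0.10 (edgeR adjusted p = 0.824).

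Of the rest of the S100 family 7 members were tested, with a median of 0.22. Called were 2 higher and 1 lower, beside 20.4% and 18% over all genes. S100a6 was higher in Cxcr2-positive cells by 1.83 and S100a11 by 1.41, both calcium-binding proteins of many cell types, and S100a1 was lower by 0.50. These 3 calls were the same on both scalings. S100a6 and S100a11 did not overlap between the gates across the 12 sums, as was so for 730 of 5812 genes (12.6%), whereas S100a8 and S100a9 overlapped.

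Granule and recent-release genes gave 6 called higher and 0 lower of 9 tested, beside 20.4% higher and 18% lower over all genes. Their median was 0.92. Retnlg was higher by 3.76, Lcn2 by 2.13 and Cxcr4 by 0.92. Cxcr4, a receptor that holds neutrophils in the marrow, is also raised on ageing ones, so it does not mark recent release alone. On library totals 5 were called higher, Icam1 being lost, and Mmp9 and Ltf were called lower, at -0.33 and -0.61. That scaling called 2074 of all 5812 genes lower. The larger gate difference of Retnlg than of the pair was not tested as such. Camp, a granule gene, was not among the genes tested. It stood at 370.3 CPM in pooled Cxcr2-positive cells and at 510.7 CPM in pooled Siglecf-positive cells. Both values came mainly from anti-VSIG4 3, at 1706 and 1766 CPM, against at most 179 CPM in either gate of any other library.

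The fold between the gates averaged lower in anti-VSIG4 than in IgG mice, a difference that did not pass its test. The mean within-mouse fold of S100a8 was 2.59 in the IgG mice and 1.65 in the anti-VSIG4 mice, and that of S100a9 2.26 and 1.503. In Siglecf-positive cells S100a8 averaged 3847 ± 673 CPM in the 3 IgG mice and 7636 ± 1804 CPM in those given anti-VSIG4 (SD, n = 3 each), and S100a9 7565 ± 766 and 13927 ± 2420 CPM. All 3 anti-VSIG4 libraries were above all 3 IgG libraries for both genes, as was so for 197 of 5812 genes (3.39%) in this gate. In Cxcr2-positive cells the groups overlapped (all 3 anti-VSIG4 libraries were higher for 3.37% of genes), with S100a8 at 10266 ± 4701 and 12357 ± 3169 CPM.

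The test of the difference took the treatment effect in each gate. Its log2 value, the effect in Cxcr2-positive cells minus that in Siglecf-positive cells, was -0.68 ± 0.30 for S100a8 and -0.61 ± 0.22 for S100a9 (SE, edgeR adjusted p = 0.992 for both). Across 5812 genes edgeR called 0 (0%) and DESeq2 called 0, while 252 genes (4.34%) had an unadjusted p under 0.05 in edgeR. With library kind added as a covariate in the gate term, the values were -0.93 and -0.84 (edgeR adjusted p = 4.41e-04 for both), and these were the 2 genes called. Over the 17 alternatives the adjusted p ran from 4.41e-04 to 1 for both genes. The treatment effect within the Siglecf-positive gate alone was not fitted.

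Several measures moved beside the Siglecf-positive levels. In the nucleus-rich libraries S100a8 in this gate was 3551 and 3373 CPM in IgG 2 and IgG 3 and 9359.8 CPM in anti-VSIG4 3, and in the others 4618 CPM in IgG 1 and 7787 and 5761 CPM in anti-VSIG4 1 and 2, so the order held within each kind. A single cell of the granule-gene sub-cluster, 1 of the 282 Siglecf-positive cells of anti-VSIG4 3, held 23.4% of the pair's UMIs there. Without it S100a8 in that library was 6863 CPM, and the ratio of the group means went from 1.98 to 1.77 for S100a8 and from 1.84 to 1.70 for S100a9. Leaving out the 6% of cells with the most UMIs gave ratios of 1.60 and 1.57, and gates at 2 UMIs, with 24 to 77 Siglecf-positive cells a library, gave 1.68 and 1.42. In these and the other versions of the gate tabulated (thinned cells, cells with few UMIs of other classes, and the haemoglobin-rich cluster added) the groups did not overlap. The pair's level in T cells, a measure of free RNA, was 1705, 497 and 226 CPM in the IgG libraries and 2135, 957 and 936 CPM in the anti-VSIG4 libraries, against 10236 to 25533 CPM in Siglecf-positive neutrophils. Its part in the result was not tested beyond these values.

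The mix of the gates did not differ detectably between the treatments. With cells thinned to 1000 UMIs, Cxcr2-positive cells were 88.9%, 81.8% and 81.1% of the singly gated neutrophils in IgG 1, 2 and 3 and 91.5%, 83.9% and 79.1% in anti-VSIG4 1, 2 and 3. The groups overlapped, and the difference of 0.881 percentage points had an exact permutation p of 0.8 (two-sided, smallest possible 0.1).

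S100a9 exceeded S100a8 in every library, and its lead was of like size in all mice. Of the pair's UMIs in neutrophils, S100a8 made up 39.2%, 35.6% and 33.6% in the IgG libraries and 38.4%, 35.3% and 37.1% in the anti-VSIG4 libraries. The groups overlapped, with a difference of 0.789 percentage points (exact permutation p = 0.8, two-sided). This share is of UMIs, and transcript capture may differ between the genes, so it is compared between cells and not read as a molar ratio.

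Within mice the share was higher in Cxcr2-positive than in Siglecf-positive neutrophils. The difference was 3.21, 0.645 and 5.25 percentage points in IgG 1, 2 and 3 and 3.04, 2.18 and 0.687 points in anti-VSIG4 1, 2 and 3, positive in 6 of 6 mice. Its mean was 2.50 ± 1.74 points (SD, n = 6), from 34.4% to 36.9%. The exact sign-flip permutation p was 0.03125, the smallest that 6 pairs allow, and 0.156 after adjustment over the 5 single-value comparisons made.

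**Figure D4:**
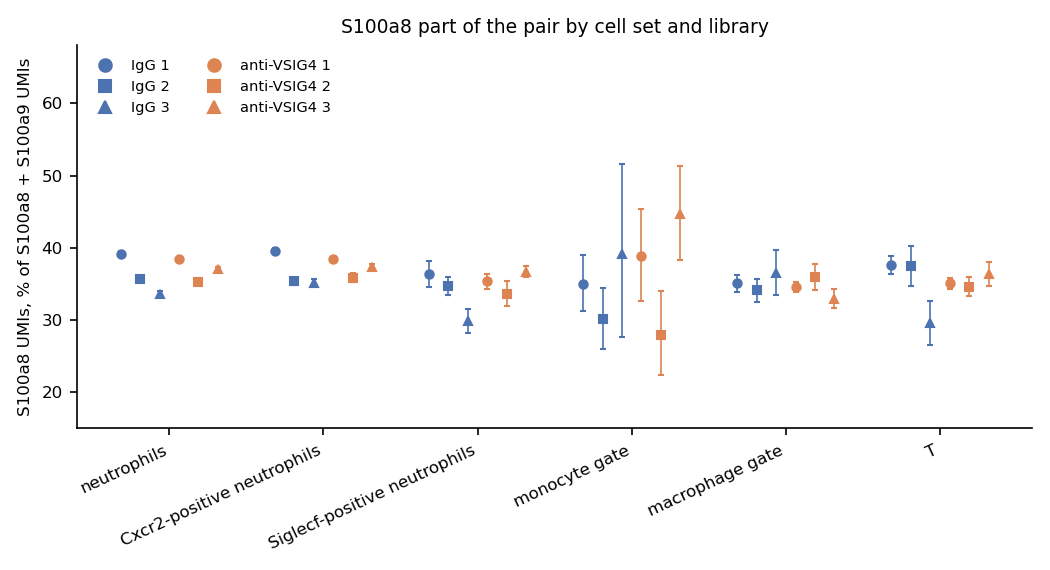
Share of S100a8 among the UMIs of the pair (%) by cell set and library, with exact binomial 95% intervals for counting error. Neutrophil shares run from 33.6% to 39.2%, and the few UMIs of the monocyte gate give wide intervals.

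Single neutrophils spread widely around that ratio. Among cells with at least 10 UMIs of the pair, 680 to 2707 per library, the median log2 ratio of S100a8 to S100a9, with 0.5 added to each count, was -0.69, -0.94 and -1.04 in IgG 1, 2 and 3 and -0.77, -1.03 and -0.89 in anti-VSIG4 1, 2 and 3. S100a8 outnumbered S100a9 in 15.6% to 21.9% of these cells. The SD of the S100a8 share over cells was 16.1 to 20.5 percentage points, against 8.33 to 9.29 points from binomial counting alone. Over these cells the ratio was weakly related to the amount of the pair, with a Spearman rho of 0.00932 to 0.124 over the cells of a library. When neutrophils of each library were ranked by the pair's level, the top quartile had an S100a8 share of 33.7% to 40.3%. That was above the share of the third quartile in 6 of 6 libraries. The step was 4.90, 1.77 and 2.02 percentage points in IgG 1, 2 and 3 and 4.87, 2.55 and 4.15 points in anti-VSIG4 1, 2 and 3. The share did not rise steadily from the lowest quartile, however. In IgG 2 the second quartile stood at 40.8% against 35.7% in the top one, and in IgG 3 at 37.7% against 33.7%. In anti-VSIG4 3 the first quartile stood at 38.3% against 37.7%. The top quartile was the highest in IgG 1, anti-VSIG4 1 and anti-VSIG4 2. These values are a description with no test.

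The 2 transcripts were also high or low in the same cells. After thinning, both were present in 68.1%, 51.2% and 48.2% of neutrophils of IgG 1, 2 and 3 and in 81.5%, 58.5% and 64.2% of those of anti-VSIG4 1, 2 and 3. Spearman's rho between them over the neutrophils of 1 library was 0.725 to 0.813, a description of cells that share a library and its free RNA. Other genes tracked the pair less closely. The highest mean rho over the 6 libraries, among 921 genes seen in at least 10% of neutrophils of each, belonged to Clec4d at 0.30, a C-type lectin receptor of myeloid cells. S100a11 followed at 0.28, then the chemokine gene Ccl6 and the antiprotease gene Slpi at 0.25 each and S100a6 at 0.25. Among the lowest were ribosomal protein genes, from Rplp2 at -0.23 and Rplp1 at -0.22 to Rps28 and Rps19 at -0.21. Counts thinned to a fixed total compete with each other, and the pair is a large part of that total in rich cells.

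Across cell classes the pair's pattern was that of neutrophil genes. Over 60 sums, of 10 classes in 6 libraries, on log2(CPM + 1), S100a8 and S100a9 had a Pearson r of 0.99 with each other. The genes most like their mean were G0s2 (0.97), an inhibitor of fat breakdown, Cxcr2 (0.97), Csf3r (0.96), Hdc (0.95), which makes histamine, Asprv1 (0.94), Mmp9 (0.94), Cstdc4 (0.94) and Retnlg (0.93). G0s2, Cxcr2, Csf3r, Hdc, Mmp9 and Retnlg are also on the marker list that named the neutrophil class. A gene high in that class is therefore bound to correlate with them. These points share libraries, depth and free RNA, and the correlations are descriptions.

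Monocytes held far less of the pair. The monocyte gate took cells of the monocyte and macrophage class with at least 1 UMI of Ly6c2, which marks classical monocytes, and at most 1 UMI of the C1q genes, which mark macrophages. It gave 160, 83 and 90 cells in IgG 1, 2 and 3 and 56, 79 and 95 cells in anti-VSIG4 1, 2 and 3. Ccr2, the receptor that brings monocytes out of the marrow, was at 118 to 189.9 CPM in the gate and at 35.8 to 96.5 CPM in macrophage-gate cells, which have at least 10 C1q UMIs and none of Ly6c2.

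S100a8 in the monocyte gate stood at 426, 361 and 68.4 CPM in the IgG libraries and at 580, 251 and 287 CPM in the anti-VSIG4 libraries. S100a9 stood at 789.7, 838 and 106 CPM in the IgG libraries and at 911, 649.6 and 355 CPM in the anti-VSIG4 libraries. Neutrophils of the same library were 14.99 to 86.7 times higher for S100a8 and 11.7 to 110.1 times higher for S100a9. IgG 3 was the lowest library for both genes, and the groups overlapped, while they stood apart for 296 of 3933 genes (7.53%).

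Those monocyte levels were set beside those of classes that should lack the genes. The ratio of the pair's level in the monocyte gate to that in T cells was 0.713 in IgG 1 (95% interval 0.655 to 0.775), 0.775 in IgG 3 (0.598 to 0.991), 0.698 in anti-VSIG4 1, 0.941 in anti-VSIG4 2 and 0.687 in anti-VSIG4 3. IgG 2 was the exception at 2.41 (2.17 to 2.69). These intervals are exact and cover counting error only. In IgG 2 most of the signal came from few cells: 5 of the 83 cells held 397 of the 475 UMIs of the pair (83.6%), 1 of them 265, and the other cells together stood at 213 CPM, below the 497 CPM of T cells. Set beside all 8 other classes described further on (T, NK and plasma cells, cDC2, migratory dendritic cells, fibroblasts, endothelial cells and tumour or epithelial cells), the gate was above their median in 5 of 6 libraries. As a percentage of the neutrophil level it stood at 4.19, 7.90 and 0.991 in IgG 1, 2 and 3 and at 4.24, 3.92 and 2.39 in anti-VSIG4 1, 2 and 3, against class medians of 3.46, 1.97 and 0.948 and of 5.61, 2.62 and 1.57. It was above 5, 8 and 5 of the 8 classes in the IgG libraries and above 0, 6 and 6 in the anti-VSIG4 libraries. The gate thus exceeded all 8 classes in IgG 2, was below all 8 in anti-VSIG4 1 and lay among them in the other 4 libraries. Depth differed among these sets. Median UMIs per library were 2217 to 4009 in the gate, 2360 to 3972 in T cells and 2176 to 3711 in NK cells. They were 5363 to 9152.5 in cDC2, 3944 to 8216 in endothelial cells and 3753 to 12966 in tumour or epithelial cells. The part of depth in these ranks was not tested. The monocyte gate also took only cells with at most 1 C1q UMI, while the other classes had no such cap. C1qa was at 55.7 to 287 CPM in T cells and at 33.0 to 118 CPM in the gate. The cap may thus pick cells low in free RNA, which would lower the gate's ratios and ranks. Its part in them was not tested. The 5 rich cells of IgG 2 also held 111 UMIs of 6 other neutrophil genes. What part neutrophils caught under the same barcode have in these counts was not tested.

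After thinning, S100a8 was seen in 27.5%, 13.3% and 4.44% of monocyte-gate cells in IgG 1, 2 and 3 and in 44.6%, 16.5% and 23.2% in anti-VSIG4 1, 2 and 3. T cells of the same libraries gave 22.1%, 9.11% and 5.47% and then 41.7%, 14.8% and 15.8%, so the monocyte-gate share was the higher in 5 of 6 libraries for S100a8, and in 4 of 6 for S100a9. These differences were not tested. Before thinning, the monocyte-gate shares were 16.7% to 71.4% at median depths of 2217 to 4009 UMIs, and the T cell shares 17.1% to 78.7% at 2360 to 3972 UMIs. Neutrophils gave 55.5% to 84.9% after thinning, above both sets in every library. Whether monocytes hold a low level of their own could not be told apart from free RNA by these values.

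Tests within the monocyte and macrophage class left both genes uncalled. Between monocyte-gate and macrophage-gate cells of the same mice, edgeR called 1999 of 9470 genes (21.1%), 928 higher in the monocyte gate (9.8%) and 1071 lower (11.3%). S100a8 differed by 0.48 ± 0.25 (SE, edgeR adjusted p = 0.263) and S100a9 by 0.43 ± 0.37 (edgeR adjusted p = 0.521). The CPM ratios of S100a8 were 1.17, 2.91 and 1.03 in the IgG mice and 0.792, 1.38 and 1.62 in the anti-VSIG4 mice. Without anti-VSIG4 1, the mouse with the ratio below 1, S100a8 was called at 0.67 (edgeR adjusted p = 0.00198), and with thinned cells at 0.44 (edgeR adjusted p = 0.0172). Its adjusted p ranged from 0.00198 to 0.812 over 14 alternatives.

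Other members of the family set monocytes apart from macrophages clearly. Of 8 tested S100 genes 5 were called higher in the monocyte gate and 0 lower, with a median of 0.95 beside -0.08 over all genes. The shares called over all genes were 9.8% higher and 11.3% lower. S100a4, which is linked to cell motility, was higher by 2.62, S100a6 by 1.73, S100a10, the partner of annexin A2, by 1.26 and S100a11 by 1.15. Regulators gave 4 higher and 1 lower of 9, among them Cebpb at 0.72 and Cebpd at 1.13 higher and Cebpa, needed earlier in myeloid development, lower by 1.80. Receptors gave 3 higher and 2 lower of 8, with Myd88 at 0.96 and Cd14 at 0.34 higher, Bsg at -0.65 and Cd36, the scavenger receptor, at -1.53. Granule and recent-release genes gave 4 higher and 2 lower of 11, with Cd177 at 2.82 higher and Mmp9 at -0.69.

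For the treatment in monocyte-gate cells, S100a8 differed by 0.37 ± 0.66 (SE, edgeR adjusted p = 0.998) and S100a9 by 0.12 ± 0.81 (edgeR adjusted p = 0.998). Of 3933 genes edgeR called 0 (0%) and DESeq2 0, with 113 (2.87%) at an unadjusted edgeR p under 0.05. The direction turned when single libraries were left out, from -0.09 to 0.65 for S100a8 and from -0.37 to 0.58 for S100a9, with the lowest values without IgG 3. The S100a8 share in the monocyte gate differed from that in neutrophils by -0.575 percentage points (3 of 6 mice positive, exact sign-flip permutation p = 0.906).

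In every other class the pair was present at a low share of its neutrophil level. Over 8 classes (T, NK, plasma, type 2 dendritic, migratory dendritic, fibroblast, endothelial and tumour cells) in 6 libraries, the pair's CPM was 0.507% to 9.28% of that in neutrophils of the same library, with a median of 2.33%. The medians by library were 3.46%, 1.97% and 0.948% in IgG 1, 2 and 3 and 5.61%, 2.62% and 1.57% in anti-VSIG4 1, 2 and 3. Anti-VSIG4 1, the library richest in calprotectin UMIs, was the highest and IgG 3, the poorest, was the lowest. In T cells the groups differed by 533 CPM on average (exact permutation p = 0.5, two-sided).

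**Figure D5:**
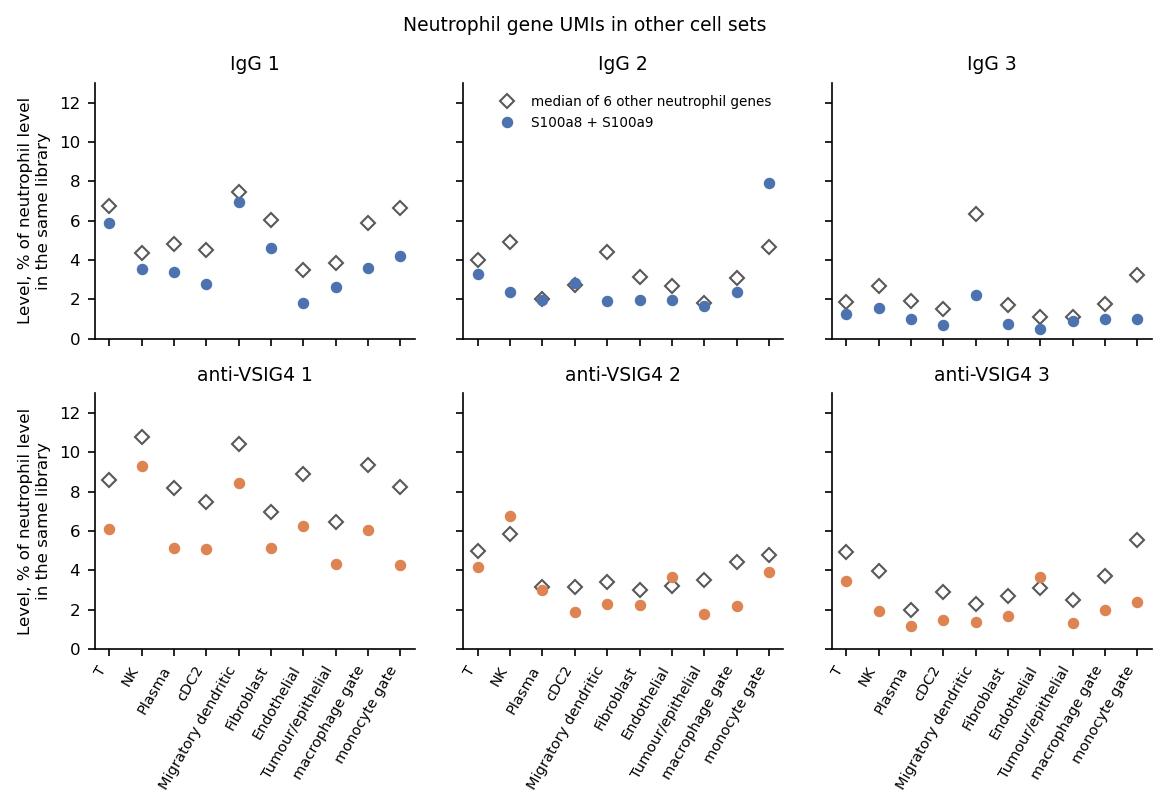
Level of S100a8 plus S100a9 in other cell sets as a percentage of the neutrophil level of the same library (filled), beside the median of 6 other neutrophil genes (open diamonds). The pair lies below the open diamond in 44 of 48 points of the 8 classes, and the monocyte gate of IgG 2 is highest for the pair in that library.

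Other neutrophil genes were present there too, mostly at a somewhat higher percentage. The median of Csf3r, Cxcr2, Retnlg, G0s2, Il1r2 and Hdc was 1.08% to 10.8% of its neutrophil level over the same 48 points, with a median of 3.51%. The pair was below this median in 44 of 48 points. It was within the range of the 6 genes in 39 points, below that range in 9 and above it in 0. Il1r2, a decoy receptor for interleukin-1, stood out in type 2 dendritic cells at 30.4% to 51.2% of its neutrophil level, so it is not a neutrophil gene alone. In the macrophage gate the pair was at 1.03% to 6.04% and below the 6-gene median in 6 of 6 libraries.

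In other classes S100a8 made up a somewhat lower share of the pair than in neutrophils in 5 of 6 libraries. Pooled over these classes and B cells, the S100a8 share was 35.9%, 34.2% and 34.5% in IgG 1, 2 and 3 and 35.0%, 32.9% and 36.0% in anti-VSIG4 1, 2 and 3. Neutrophils of the same libraries stood at 39.2%, 35.6% and 33.6% and at 38.4%, 35.3% and 37.1%. The pooled share was thus the lower in 5 of 6 libraries, IgG 3 being the exception. In those 5 the neutrophil share lay above the exact binomial interval of the pooled share. That interval was 34.5% to 35.5% in anti-VSIG4 1. In anti-VSIG4 3 it ended at 37.06%, against 37.09% in neutrophils. In IgG 3 the neutrophil share lay inside it. These intervals cover counting error only, and the difference was not tested over mice. By class and library, without B cells, the S100a8 share ran from 23.5% to 47.6%, with a median of 35.7%. The monocyte and macrophage class was not in this pool. Its share was 35.1%, 35.8% and 38.6% in IgG 1, 2 and 3 and 35.9%, 36.6% and 34.6% in anti-VSIG4 1, 2 and 3. It was above the neutrophil share in IgG 2, IgG 3 and anti-VSIG4 2 and below it in the other libraries.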

How the data were processed

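The authors deposited 1 sparse matrix of UMI counts per library, made from tumour cells with DNBelab C TaiM4 V3.0 chemistry and a DNBSEQ-T7 sequencer, per the labels' protocols. PISA 1.0 made the matrices, per the file headers. The submitters' processing notes also name STAR and Seurat 4.11. Genome build and annotation: not given in the sources used here, so antisense or shared reads could not be checked.

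Cells with at least 500 UMIs, 300 genes and at most 20% mitochondrial UMIs were kept, and every deposited barcode already held 1000 UMIs or more, with medians of 2127 to 2703 per library. Cells were clustered (scanpy 1.11.5, Leiden, 3000 variable genes, 40 components, 20 neighbours, resolution 1, 28 clusters) without S100a8 and S100a9. Clusters were named from marker lists of other genes. No doublets were removed, and leaving out the 6% of cells with the most UMIs was an alternative. Clusters rich in genes spanning over 100 kb in the reference annotation were called nucleus-like and kept apart. Counts were summed per mouse and cell set and tested with edgeR 4.0.16 (quasi-likelihood, TMM, filterByExpr, Benjamini-Hochberg over all genes tested, threshold 0.05), with DESeq2 1.42.0 as an alternative. The edgeR code was run on simulated counts with the same fixed dispersion for every gene. That run does not show how the test behaves at the spread between these mice. The mouse was a block between gates. Shares were compared by exact permutation over mice, with exact binomial intervals of 95%. For shares of cells with a UMI, every cell was thinned to 1000 UMIs. Other alternatives were other scalings, no low-count filter, other gates, library kind, and leaving out each library.

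The members, the gene lists (receptors and partners, regulators, S100 family, granule and recent-release genes, eosinophil markers) and the tests were chosen with earlier results of these data known. Named genes were the pair, the gate genes, up to 4 called members of each list by p, the 8 genes most correlated over classes and the 5 highest and 5 lowest within neutrophils. A few further genes were named after their values were seen: Car4, Camp, Cebpe, Spi1 and Bsg, and those that changed call with scaling. Some genes that the rule names are not reported here.

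Replicate numbers are shared between the groups, but they do not pair the mice. Deviations of same-numbered neutrophil sums correlated at 0.33, -0.20 and 0.31.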

Additional observations from a re-analysis of the deposited data

How the results depend on the processing

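Of 299 recomputed values, 248 kept their direction and their side of the threshold, or for counts stayed within 1.5 times. S100a8 and S100a9 in neutrophils between treatments kept both under all 18 alternatives (0.32 to 1.03 and 0.35 to 0.86, uncalled), as did the gate difference under all 16 (1.00 to 1.66 and 0.84 to 1.33, called). With the replicate block, the treatment difference in neutrophils was 0.63 for S100a8 and 0.58 for S100a9 (edgeR adjusted p = 0.219 for both). No other call on the pair changed with that block.

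Counts of genes called moved more, and the cause was not tested. In neutrophils between treatments they were 11 with the replicate block, 3 with DESeq2, 67 with no filter on low counts, 9 with library kind, 0 on library totals, and 0 to 1 leaving out one library. Between the gates they were 1396 with no replicate block, 1315 with thinned cells and 1254 with gates at 2 UMIs. For the treatment effect between gates they were 1 with the replicate block, 3 with no filter, 2 thinned, 2 with library kind, and 0 to 3 leaving out one library. In monocyte-gate cells they were 5 with the replicate block, 9 with no filter, and 0 to 4 leaving out one library. Between monocyte and macrophage gates they were 1096 thinned and 172 with monocytes lacking neutrophil UMIs, a set with fewer cells.

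With library kind, the treatment effect between gates was -0.93 for S100a8 and -0.84 for S100a9, and S100a9 in monocyte-gate cells was -0.16. Leaving out one library gave -0.0878 to 0.65 for S100a8 and -0.37 to 0.58 for S100a9 in monocyte-gate cells. For S100a8 between monocyte and macrophage gates it gave 0.23 to 0.67, and thinned cells gave 0.44. The S100a8 share between treatments ran from -0.477 to 2.31 points leaving out one library. Between the gates the share difference was 1.95 to 2.87 points over 5 pairs, where the exact permutation p cannot go below 0.0625, and with no replicate block 2.50 (exact permutation p = 0.0693). Monocyte minus neutrophil shares ran from -2.22 to 0.794 points leaving out one library, 4.25 with thinned cells and 0.00557 without the 6% of cells with the most UMIs. The Cxcr2-positive share ran from -2.45 to 3.74 points, and was -1.79 with library kind. With monocytes lacking neutrophil UMIs the filter removed both genes from the treatment test and S100a8 from the macrophage comparison. With 3 mice a group, few cells in the monocyte gate and UMIs of the pair in every class, small differences in monocytes could not be seen at this depth.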
